A study of Rattus norvegicus with 2 samples.

Results

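Arterial endothelial cells line the vessels that carry blood into a tissue. They receive high shear stress, use Notch signalling to keep their identity, join to each other and to the underlying smooth muscle through gap junctions built from connexins, and secrete elastic matrix proteins and vasoactive peptides. In skeletal muscle they feed a dense bed of capillaries that drains into venules, and mural cells (smooth muscle cells around arteries and arterioles, pericytes around capillaries) sit on their outer side.

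The cells described here are 213 barcodes of a single-cell RNA sequencing experiment on skeletal muscle, among 3339 vascular endothelial cells and 21154 barcodes past the filters. They were chosen by their own measured values: at least 2 of the 5 endothelial genes Pecam1, Cdh5, Flt1, Kdr and Ptprb were detected, at least 2 of the 4 arterial genes Sema3g, Gja4, Gja5 and Hey1 were detected, and the immune gene Ptprc, the fibroblast gene Pdgfra and the lymphatic gene Prox1 were not. Sema3g encodes a secreted semaphorin, Gja4 and Gja5 the gap junction proteins connexin 37 and connexin 40, and Hey1 a transcription factor induced by Notch. These 12 genes describe the choice and are not findings. Vascular cells with at most 1 of the 4 arterial genes, called other vascular cells, served as the comparator.

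A single rat-mouse chimera and a single SD (Sprague-Dawley) rat gave the muscle, taken from the whole body of each. Per the study's methods, the chimera grew from an SD rat morula injected with mouse induced pluripotent stem cells (iPSCs) of the genotype Dmd mdx; Pax7-nGFP after editing of dystrophin, so its mouse cells are all derived from those iPSCs and its rat cells from the host embryo. The SD rat had no injected cells, and neither animal carried a treatment per the labels, which give no age or sex. Both tissues were digested with collagenase, and live cells were sorted with a viability dye and captured with a 10x Genomics droplet kit. The chimera library held 118872850 UMIs (unique molecular identifiers, 1 per captured transcript) in 13299 barcodes, and the SD rat library 70957559 UMIs in 10117 barcodes. With 1 library per group no test between animals was possible, so shares carry exact 95% binomial intervals and ratios exact 95% counting intervals. These intervals cover counting error only and not the spread between animals. Those of the ratios treat each UMI as independent and leave out the spread between cells as well. The libraries shared 43 barcodes, and 1 of the 213 cells, a mouse cell, carried a shared barcode.

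Species was read from each chimera barcode's UMIs, mouse where 80% or more of them mapped to mouse genes and rat where 20% or fewer did. By this rule 115 of the 213 cells were mouse cells of the chimera, 44 were rat cells of the chimera and 54 came from the SD rat. Another 96 barcodes of the chimera passed the arterial gate with UMIs of both species in between and belong to no group. EGFP, the Pax7 reporter of the iPSCs, had 0 UMIs in the 115 mouse cells.

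The label was checked first against genes the choice did not use, and mural genes were found in a minority of the mouse cells but in many of the rat cells. Mural cells are marked by Rgs5, Acta2 (smooth muscle actin), Myh11 (smooth muscle myosin), Pdgfrb (the PDGF receptor of pericytes), Cspg4, Notch3, Kcnj8 and Abcc9. At least 3 of these 8 genes were detected in 9 of 115 mouse arterial-gated cells (7.83%, 3.64 to 14.3), but in 29 of 44 chimera rat cells (65.9%, 50.1 to 79.5) and 24 of 54 SD rat cells (44.4%, 30.9 to 58.6). Among other vascular cells these shares were 2.20% in mouse, 10.2% in chimera rat and 6.86% in SD rat cells. The mural profile therefore marked the arterial-gated rat cells far more often than the rat endothelium around them. Not every rat cell carried it, as 11 of 44 chimera rat and 22 of 54 SD rat arterial-gated cells had none of the 8 genes, against 69 of 115 mouse cells. The contrast within the chimera also depends on the species rule. Of the chimera's barcodes with at least 3 mural genes, no endothelial gene and none of Ptprc, Pdgfra and Prox1, 189 were called rat, 2 mouse and 40 mixed. A mouse endothelial barcode with much rat mural RNA can therefore fall below 80% mouse UMIs and count as mixed. Of the 96 mixed arterial-gated barcodes 72 had at least 3 mural genes, and in 77 the endothelial UMIs were mostly mouse. How far the rule sets the contrast was not tested. By level, 2 of 9 tested mural markers were called at least 2-fold higher in mouse arterial-gated cells and 1 lower. Over all tested genes 1.04% were called higher and 0.878% lower. In counts per 1000000 UMIs (CPM), Kcnj8 was at 30.8 against 8.36 (5 cells), Abcc9 at 39.3 against 11.6 (17 cells) and Tagln at 34.0 against 147. The UMIs of both higher genes in these cells were mostly rat, with 2 mouse and 27 rat for Kcnj8 and 15 and 22 for Abcc9.

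**Figure D1:**
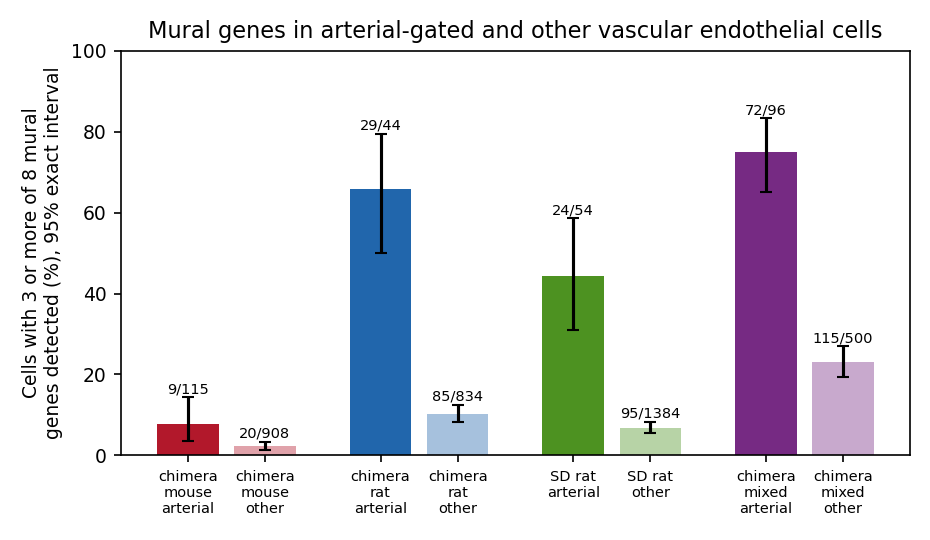
Share of arterial-gated (dark) and other vascular cells (light) in which at least 3 of 8 mural genes were detected, in percent, for mouse, rat and mixed-species barcodes of the chimera and for the SD rat. Bars give the share with its exact 95% binomial interval and the cell counts; the mouse arterial-gated cells stand at 7.83% and the 3 other arterial-gated groups at 44.4% or above.

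Depth differed between these groups and was equalised for the same count. The median UMI number was 7656 in arterial-gated and 5968.5 in other mouse cells, 10931.5 and 4692 in chimera rat cells, and 7215 and 2769 in SD rat cells. After every cell was thinned to 2000 UMIs, at least 3 mural genes remained in 29.5% of the chimera rat and 17.6% of the SD rat arterial-gated cells, against 5.8% and 5.0% of other rat cells. In mouse none of 114 thinned arterial-gated cells had 3 mural genes, which allows a share of up to 2.63%. The doublet caller Scrublet marked none of the 213 cells, which allows a share of marked cells of up to 1.41%. This limit covers the caller's marks and not doublets as such. With 8% expected, it marked 3.06% of chimera and 1.78% of SD rat barcodes, and 3 of the 96 mixed arterial-gated barcodes. The part of mural cells, or of their RNA, in the arterial-gated barcodes was not tested.

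The 12 mural markers summed to 388 CPM in mouse arterial-gated cells and 423 in other mouse vascular cells. In chimera rat cells the sums were 3930 and 1488, and in SD rat cells 3126 and 1162. Barcodes with at least 3 mural genes and no endothelial gene, 189 in chimera rat and 149 in the SD rat, reached 16932 and 7181. In those mural barcodes Gja4 was detected in 55.6% (chimera rat) and 26.8% (SD rat), and Hey1 in 12.2% and 6.7%. Sema3g reached 0.5% and 0%, and Gja5 was found in none of them, which allows up to 1.59% and 2.01%. Connexin 37 was thus shared with the mural barcodes of these rats, whereas Sema3g and Gja5 were nearly or fully absent there.

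This difference between the 4 arterial genes was visible in how cells passed the gate. The pair Gja4 and Hey1 alone admitted 28 of 44 chimera rat cells (63.6%) and 27 of 54 SD rat cells (50.0%), but 32 of 115 mouse cells (27.8%). Sema3g or Gja5 was present in 83 mouse cells (72.2%), 16 chimera rat cells (36.4%) and 27 SD rat cells (50.0%). Detection of at least 2 arterial genes outside the endothelium depended on the barcodes taken. In the mural barcodes it was reached by 15 of 189 in the chimera rat (7.94%, 4.51 to 12.8) and 5 of 149 in the SD rat (3.36%, 1.10 to 7.66), at median UMI numbers of 5103 and 2989. These shares overlap the arterial-gated shares of the rat vascular cells, 5.01% and 3.76%. Among barcodes with Ptprc, Pdgfra or Prox1 and fewer than 2 endothelial genes, 0.208% of mouse, 0.0225% of chimera rat and 0.0290% of SD rat barcodes had at least 2 arterial genes. Those barcodes had median UMI numbers of 10586 to 11405, as high as the arterial-gated cells or nearly so. In what follows the rat cells are called arterial-gated, after the rule, and the main rat results are given for all of them and again without the cells that had at least 3 mural genes.

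Arterial-gated cells were more frequent in the mouse endothelium of the chimera than in either rat endothelium. They made up 11.2% of the 1023 mouse vascular cells (9.37 to 13.3), 5.01% of the 878 chimera rat vascular cells (3.66 to 6.67) and 3.76% of the 1438 SD rat vascular cells (2.83 to 4.87). The intervals of the rat populations overlapped each other, and neither overlapped that of the mouse cells. Thinned to 2000 UMIs, with 121, 132 and 491 shallower vascular cells left out and the gates read again, 48 of 923 mouse cells (5.20%), 2 of 688 chimera rat cells (0.291%) and 13 of 924 SD rat cells (1.41%) still passed. The order of the rat populations turned at this depth, on 2 chimera rat cells and with overlapping intervals (0.0352 to 1.05 and 0.751 to 2.39). Thinned to 4000 UMIs, with 322, 349 and 939 cells left out, the shares were 7.92% in mouse (6.08 to 10.1), 2.62% in chimera rat (1.44 to 4.35) and 4.46% in SD rat cells (2.85 to 6.61). The mouse share stayed the highest at both depths, but at 4000 UMIs its interval overlapped that of the SD rat.

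**Figure D2:**
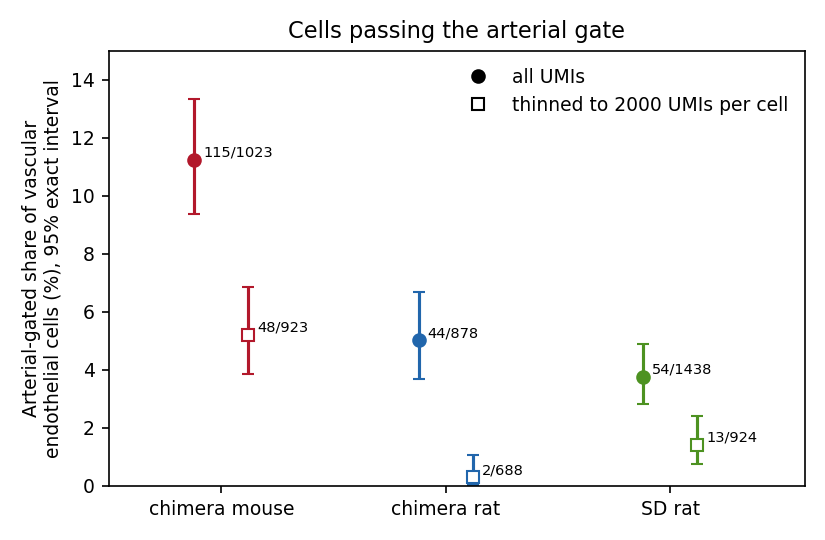
Arterial-gated share of the vascular endothelial cells of each population in percent, from all UMIs (filled circles) and after thinning each cell to 2000 UMIs (open squares), with exact 95% binomial intervals and cell counts. The mouse share is the highest of the 3 on either measure, at 11.2% and 5.20%.

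Within the chimera, mouse cells were the majority of the arterial-gated compartment and close to even in the rest. Mouse cells were 115 of 159 arterial-gated cells (72.3%, 64.7 to 79.1), 102 of 226 other vascular cells with at least 2 of the venous genes Nr2f2, Ackr1, Selp and Lrg1 (45.1%, 38.5 to 51.9) and 806 of 1516 remaining vascular cells (53.2%, 50.6 to 55.7). Arterial-gated cells with at least 2 of these venous genes, 2 mouse and 17 rat, were counted as arterial-gated only. Without the cells that had at least 3 mural genes the mouse share of the arterial-gated cells was 87.6% (106 of 121, 80.4 to 92.9), and among those with them it was 23.7% (9 of 38). Both shares leave out the 96 mixed arterial-gated barcodes, of which 72 had at least 3 mural genes. Thinned to 2000 UMIs the mouse share of the arterial-gated cells was 96.0% (48 of 50), and thinned to 4000 UMIs it was 80.8% (59 of 73). The excess depended on the species call: with species called at 90% and 10% only 7 chimera rat arterial-gated cells were left, and mouse cells were 93.6% of the arterial-gated, 84.6% of the venous-gated and 91.6% of the remaining cells.

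In the mouse arterial-gated cells, genes that the gate did not read differed from other vascular cells in several lists. At least 2-fold higher were 7 of 12 large artery and elastic matrix genes, 5 of 9 chemokine and growth factor genes and the vasoconstrictor gene Edn1, and at least 2-fold lower were 7 of 9 venous markers, among them Selp and Ackr1. Levels are summed UMIs in CPM over symbols present in both species, and a gene was called when its log2 ratio, with 10 CPM added to each side, reached 2-fold. Of 9224 genes with at least 30 UMIs, 96 (1.04%) were called higher and 81 (0.878%) lower in mouse arterial-gated than in other mouse vascular cells, and the median log2 ratio of all tested genes was -0.01.

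Stmn2, which encodes the microtubule regulator stathmin-2, was detected in 92 of the 115 mouse arterial-gated cells and in 15.7% of other mouse vascular cells. Its level was 603 CPM against 111, a 5.41-fold ratio (4.80 to 6.10), and at 2000 UMIs per cell it was still found in 55.3% against 10.0%. No single cell gave more than 4.23% of its UMIs. In the rats Stmn2 was close to absent, with 1 UMI in the 44 chimera rat arterial-gated cells and none in the 54 SD rat cells, which allows up to 5.56% of SD rat cells. Mouse and rat levels were read against different gene models, so the species are set side by side and not tested.

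The list of large artery and elastic matrix genes had 7 of 12 tested members called higher in mouse arterial-gated cells and none lower, with a median log2 ratio of 1.30 against -0.01 for all genes. Fbln5, encoding fibulin-5, which helps to assemble elastic fibres, was at 325 CPM against 32.4, a ratio of 10.0 (8.25 to 12.2). Fbn1, encoding fibrillin-1 of microfibrils, was at 157 against 65.2 (2.41-fold, 1.97 to 2.94). Eln, which encodes elastin itself, did not differ in mouse cells, at 162 CPM on both sides. Mgp, encoding matrix Gla protein, an inhibitor of calcification, was at 1335 against 321 (4.16-fold), but 1 cell gave 27.4% of its UMIs and the log2 ratio was -0.55 after thinning. Cytl1 was at 188 against 1.63, with 68.9% of its UMIs in 1 cell. Lox, encoding the enzyme that crosslinks elastin and collagen, and the chaperone gene Clu completed the members called.

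Of 9 chemokine and growth factor genes of arterial endothelium, 5 were called higher in mouse cells and none lower (median log2 ratio 1.09). Vegfc, a ligand of the VEGF receptor of lymphatic endothelium, was at 184 CPM against 23.6 (7.77-fold, 6.11 to 9.92). Bmx, encoding a cytoplasmic tyrosine kinase long used to mark arterial endothelium, was at 49.9 against 2.65 (18.8-fold, 10.0 to 38.0). Igfbp3, which encodes a binding protein of insulin-like growth factors, was at 527 against 139 (3.80-fold, 3.38 to 4.27). Alpl (alkaline phosphatase) and the receptor gene Fgfr3 were called as well, at 8.56-fold and 3.72-fold. Cxcl12, the chemokine of arterial endothelium with the highest level of these 9, was at 2218 against 1411 CPM (1.57-fold), below the 2-fold rule.

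Among 13 tested guidance and transcription factor genes, Efnb2 and Tox2 were called higher in mouse cells. Efnb2, encoding ephrin-B2, the classical arterial surface ligand, was at 196 CPM against 85.0 (2.31-fold, 1.93 to 2.76), and Tox2 at 68.0 against 8.15 (8.34-fold). Sox17, a transcription factor of arterial endothelium, differed less, at 428 against 334 (1.28-fold, 1.15 to 1.43). Of 10 tested Notch pathway genes only the ligand gene Jag1 was called, at 115 against 34.2 (3.35-fold, 2.61 to 4.29). The ligand Dll4 was at 107 against 79.7 (1.35-fold) and the receptor Notch1 at 255 against 135 (1.88-fold). Both lay above 1 with their counting intervals and below the 2-fold rule.

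Vasomotor genes had 2 of 11 tested members higher and 1 lower. Edn1, encoding the vasoconstrictor peptide endothelin-1, was at 291 CPM against 79.3 (3.67-fold, 3.13 to 4.29). Ace, encoding angiotensin-converting enzyme, was at 97.7 against 40.6 (2.41-fold), while Ptgs1, a cyclooxygenase gene, was lower at 12.7 against 37.3. Nos3, encoding endothelial nitric oxide synthase, was at 166 against 111 (1.49-fold). In the BMP and TGF-beta list, the ligand gene Tgfb2 (3.16-fold) and the inhibitor gene Smad6 (3.51-fold) were called among 12. No member was called in the basement membrane (9 tested), flow-responsive (7), junction (7), immediate early (9) or cell cycle (10) lists, whose median log2 ratios lay between -0.08 and 0.59.

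The venous markers were the mirror image, with 7 of 9 called lower in mouse cells and a median log2 ratio of -1.76. Selp, encoding P-selectin, was at 21.2 CPM against 832 (39.2-fold lower, 25.3 to 64.2). Ackr1, the chemokine-binding receptor of venules, was at 2.12 against 261, and Lrg1, a secreted glycoprotein gene of venules, at 5.31 against 251. Nr2f2, the transcription factor that specifies veins, was at 29.7 against 71.1 (2.39-fold lower, 1.63 to 3.65). Ephb4, the receptor of ephrin-B2, was the exception together with Vcam1, at 1.22-fold (0.909 to 1.61) and 1.26-fold (1.11 to 1.43). The capillary list showed no such contrast: 1 of 11 tested genes (Btnl9) was called higher and none lower, and Fabp4, a fatty acid binding protein gene of muscle capillaries, was at 18031 against 19755 CPM.

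The strongest ratios of the mouse cells included genes outside the lists, chosen for naming after their values were seen. Col8a1, a collagen gene of the vessel wall, was at 179 against 13.5 CPM (13.3-fold). Rbp7, encoding a retinol-binding protein, was at 1399 against 371 (3.77-fold), whereas in chimera rat cells it was at 317 against 401 and in SD rat cells at 210 against 200. Gkn3 was detected in 10.4% of mouse arterial-gated and 0.11% of other mouse cells. Sele, encoding E-selectin, was at 1.06 against 338 CPM.

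Detection of Stmn2 and Fbln5 in mouse cells was higher, and that of Selp lower, with each further gate gene, and the step of Stmn2 across the threshold was its largest. With no gate gene Stmn2 was found in 10.1% of 681 cells, just outside the threshold, with 1, in 32.6% of 227 cells, and just inside, with 2, in 69.0% of 71 cells. With 3 gate genes it was found in 97.0% of 33 cells and with 4 in all 11. Fbln5 stood at 6.0%, 10.6%, 39.4%, 75.8% and 100% from 0 to 4 gate genes, and Selp at 16.2%, 6.6%, 5.6%, 3.0% and 0%. The median UMI numbers of these mouse cells were 5528, 6951, 7790, 7499 and 6251, so depth was also higher just inside the threshold than outside it, and its part in the detection was not tested. In the rats depth rose with the count throughout, from 4198 to 18457 in the chimera and from 2563 to 42051 in the SD rat. Rgs5 was found in 10.6% of chimera rat cells with no gate gene, 33.2% with 1, 61.8% with 2 and 77.8% with 3. In SD rat cells it was found in 11.6%, 28.5%, 45.5% and 44.4%, so there it was no higher with 3 gate genes than with 2.

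**Figure D3:**
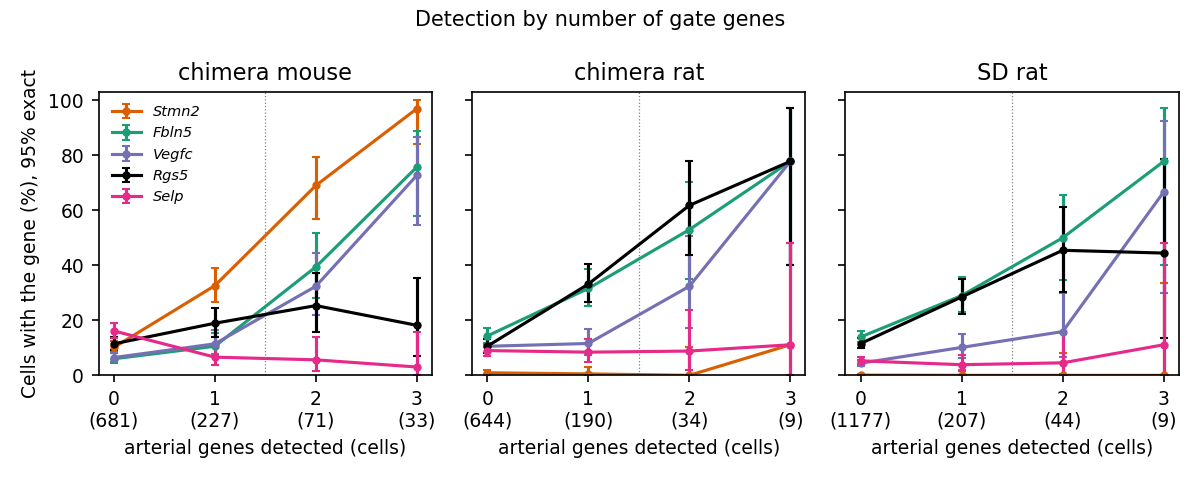
Percent of vascular cells in which 5 genes outside the gate were detected (vertical axis, exact 95% binomial intervals) against the number of gate genes detected, with cell counts in brackets; the dotted line is the threshold. In mouse cells Stmn2 goes from 10.1% to 97.0% and the mural gene Rgs5 stays at or below 25.4%, whereas in chimera rat cells Rgs5 goes from 10.6% to 77.8%.

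In the rats the same gate gave cells with part of the arterial profile and a raised mural profile. Of 8875 tested genes in the chimera rat, 120 (1.35%) were called higher and 314 (3.54%) lower. In the SD rat 144 of 8868 (1.62%) were called higher and 390 (4.4%) lower. The median log2 ratios of all genes were -0.09 and -0.07. Of 11 tested mural markers 6 were called higher in chimera rat and 8 in SD rat cells, none lower. Rgs5, a regulator of G protein signalling in pericytes, was at 1042 CPM against 274 in the chimera rat (3.80-fold, 3.42 to 4.22) and 1174 against 276 in the SD rat (4.26-fold, 3.83 to 4.74). In mouse cells it was at 120 against 88.1 (1.36-fold, 1.10 to 1.68), with 2 mouse and 111 rat UMIs in the arterial-gated cells. The 8 myofibre genes and the 6 fibroblast genes tested were called lower in both rats and none of them in mouse cells. Also called lower were 3 of 4 lymphatic and 2 of 2 Schwann cell genes in each rat, and 3 of 5 immune genes in the chimera rat and 4 of 5 in the SD rat. In mouse cells only 1 lymphatic, 1 Schwann cell and 3 immune genes were tested, and none was called. Of 10 tested capillary genes, Gpihbp1 and Cd300lg were called lower in the chimera rat and Btnl9 in the SD rat. Of 2 erythroid genes, Alas2 was called higher in the chimera rat, where 1 cell held 97.0% of that list's UMIs, and both were lower in the SD rat.

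Fewer of the arterial genes were called in every population. Fbln5 was at 160 against 62.0 CPM in the chimera rat (2.59-fold, 1.99 to 3.34) and 191 against 79.8 in the SD rat (2.40-fold, 1.85 to 3.07), where 1 cell held 37.5% of its UMIs. Vegfc was 2.56-fold higher (1.76 to 3.65) in the chimera rat and 2.82-fold (1.80 to 4.30) in the SD rat, with 27.6% of the SD rat UMIs in 1 cell. Edn1 was 4.11-fold higher (2.54 to 6.51) and 5.12-fold higher (3.50 to 7.41), with 26.7% of its UMIs in 1 chimera rat cell and 53.3% in 1 SD rat cell. These 3 genes were called higher in mouse, chimera rat and SD rat cells, and in the SD rat each call rested on 1 cell. Without the cell that gave most of its UMIs, Fbln5 was at 1.64-fold (1.20 to 2.22) in the SD rat, Vegfc at log2 ratios of 0.91 in both rats and Edn1 at 0.99 in the SD rat, all below the 2-fold rule, while Fbln5 and Edn1 in the chimera rat and all 3 genes in mouse cells stayed past it. Efnb2 was at 125 against 128 CPM in the chimera rat and 215 against 208 in the SD rat. Without cells with at least 3 mural genes it was at 1.12-fold (0.634 to 1.84) and 1.24-fold (0.877 to 1.70). Eln was called in both rats (2.36-fold and 5.59-fold), with 1 cell giving 55.2% and 46.8% of its UMIs. Without that cell the chimera rat ratio was 1.08-fold (0.898 to 1.28) and the SD rat ratio 3.07-fold (2.72 to 3.46).

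The rats did not share the same venous values. In the chimera rat none of the 9 venous markers was called lower (median log2 ratio -0.03). At least 2 of the 4 venous genes were detected in 17 of the 44 cells (38.6%), against 14.9% of other chimera rat vascular cells. In the SD rat 4 of 9 venous markers were called lower, among them Selp at 7.17 against 221 CPM. There 4 of 54 cells (7.41%) had at least 2 venous genes, against 6.94% of other SD rat vascular cells. One chimera rat cell supplied 78.4% of the Selp UMIs and 91.4% of the Ackr1 UMIs of that group, so those levels describe 1 cell. Nr2f2 was spread more evenly, at 113 against 111 CPM in the chimera rat, with no cell above 10.5% of its UMIs. Most of its UMIs in chimera rat vascular cells were on the mouse gene, which the SD rat reference lacked.

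Leaving out the cells with at least 3 mural genes from both sides kept 106 mouse, 15 chimera rat and 30 SD rat arterial-gated cells. The background then was 1.45% of genes called higher and 1.59% lower in mouse, 3.61% and 17.1% in chimera rat, and 2.79% and 13.5% in SD rat cells among these fewer cells. Venous markers were then called lower for 7 of 9 genes in mouse, 6 of 9 in chimera rat and 6 of 9 in SD rat cells. Nr2f2 and Ackr1 had 0 UMIs in the arterial-gated cells of both rats, which allows up to 29.0 CPM in the chimera rat and 20.5 in the SD rat, against 75.2 and 32.6 CPM of Nr2f2 in the comparator. Elastic matrix genes were called higher for 8 of 12 in mouse, 6 of 10 in chimera rat and 7 of 10 in SD rat cells. Eln was at 6.94-fold and 15.1-fold among them, with 96.7% and 49.2% of its UMIs in 1 cell. Edn1 was 10.4-fold higher (5.75 to 18.1) in the chimera rat and 9.68-fold (6.27 to 14.6) in the SD rat, with 44.4% and 72.7% of its UMIs in 1 cell. Vegfc was at 29.0 against 34.9 CPM from 3 UMIs in the chimera rat and at 2.93-fold (1.36 to 5.66) from 10 UMIs in the SD rat. Fbln5 stayed at 2.90-fold (1.71 to 4.65) and 2.14-fold (1.35 to 3.26), with 31.6% and 29.2% of its UMIs in 1 cell.

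**Figure D4:**
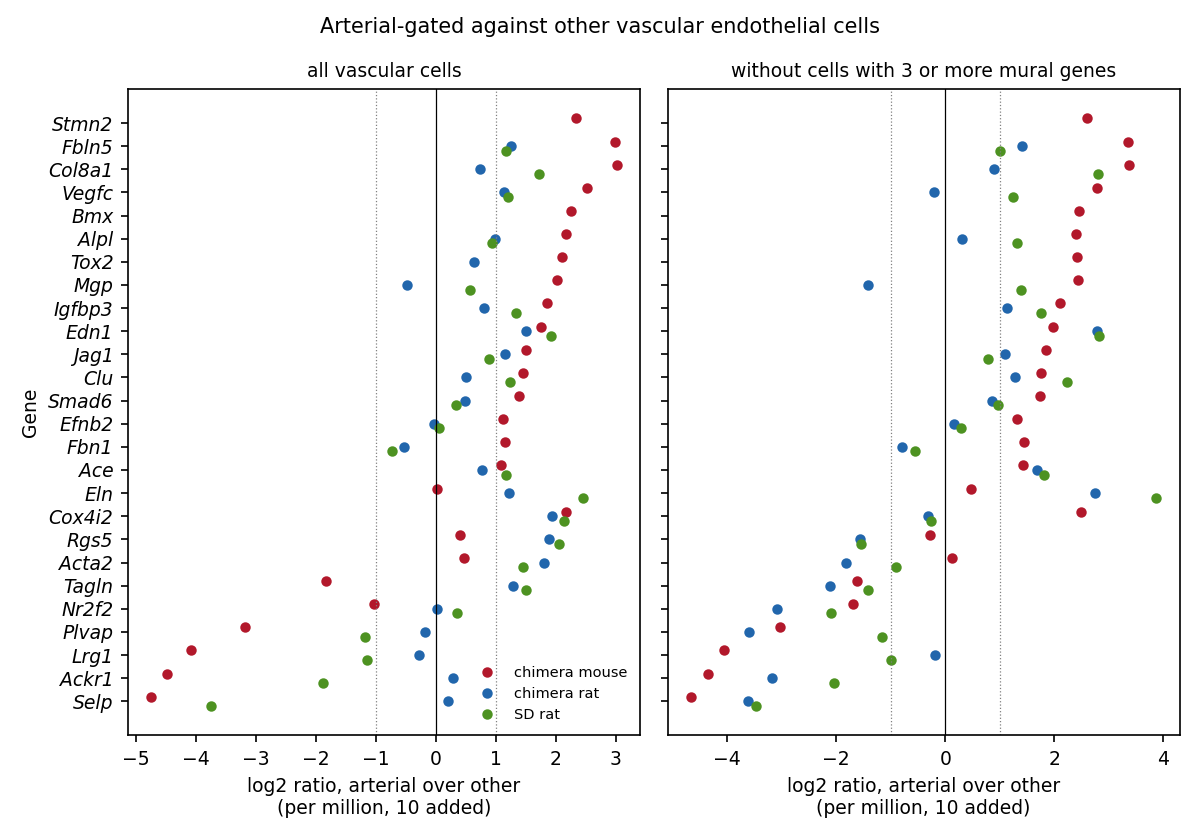
Log2 ratio of arterial-gated over other vascular cells (CPM, 10 added) for the genes on the vertical axis in mouse, chimera rat and SD rat cells, from all vascular cells (left) and without cells with at least 3 mural genes (right). Points are given only for genes tested in that population, and dotted lines mark 2-fold. Cox4i2, Rgs5 and Acta2 go from above 0 to below 0 in both rats between the panels, while Fbln5 and Edn1 stay above 2-fold in every population.

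Genes that held in all 3 populations were ranked over 6605 symbols with enough UMIs and no dominant cell, by the lowest of the 3 log2 ratios. Only 7 were at least 2-fold higher in every population and 5 at least 2-fold lower. The 7 were Cox4i2, Atp2a3, Rgs10, Igfbp4, Igf2, Lrrc32 and Prdm16. Cox4i2, a lung-type subunit of cytochrome c oxidase also known from pericytes, was at 96.6 against 13.9 CPM in mouse (6.97-fold, 5.04 to 9.69), 4.21-fold higher in chimera rat and 5.00-fold in SD rat cells. Atp2a3, encoding the endoplasmic reticulum calcium pump SERCA3, was 6.74-fold, 6.71-fold and 4.34-fold higher. Prdm16, a transcriptional regulator, was 2.59-fold, 2.68-fold and 2.86-fold higher, and Igf2, encoding insulin-like growth factor 2, was 4.28-fold, 5.14-fold and 2.85-fold higher.

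These genes fell into separate sets once cells with mural genes were left out. Of the 15 top-ranked genes, Cox4i2, Abcc9, Cystm1 and Pcp4l1 were at least 2-fold higher in mural barcodes than in other vascular cells in both rats, and these 4 were also the ones whose ratio turned below 0 in at least 1 rat. Cox4i2 went to log2 ratios of -0.32 and -0.26 in the rats, while in mouse cells it was at 2.48. The other 11 kept a positive ratio in every population, and 7 of them were past 2-fold in all 3: Atp2a3 (2.02, 2.54 and 2.20 on the log2 scale in mouse, chimera rat and SD rat), Rgs10 (2.19, 2.10 and 1.44), Igfbp4, Igf2, Prdm16, Igfbp3 and Ace (1.42, 1.68 and 1.80). Rgs10 encodes a regulator of G protein signalling, and in mural barcodes its log2 ratio was -0.72 in the chimera rat and 0.37 in the SD rat. The remaining 4 were Lrrc32, Alpl, Jag1 and the immediate early nuclear receptor gene Nr4a1.

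The 15 genes lowest in all 3 populations began with Tll1, Trdn, Ccdc85a, Mctp1 and Tmtc2, each at least 2-fold lower everywhere. Tll1, encoding a tolloid-like metalloprotease, was at 23.4 against 196 CPM in mouse (8.39-fold lower, 5.51 to 13.5), 3.27-fold lower in chimera rat and 4.18-fold lower in SD rat cells. Hdac9, a histone deacetylase gene, was 7.54-fold, 3.34-fold and 1.87-fold lower, and Nrp2, a semaphorin and VEGF-C receptor gene of veins and lymphatics, 1.95-fold, 1.79-fold and 1.88-fold lower. Without cells with mural genes 14 of the 15 were still lower in every population, Aebp1 being the exception, and 6 were past 2-fold in all 3 (Tll1, Tmtc2, Piezo2, Maf, Nrp2 and Hdac9). Trdn, encoding triadin of the muscle calcium release complex, was lower along with the myofibre genes in the arterial-gated rat cells. Cd74, the invariant chain of antigen presentation, was the only member of its list called in all 3 populations, at 66.9 against 223, 19.8 against 248 and 14.3 against 136 CPM. Without cells with mural genes it was called lower in all 3 again, at log2 ratios of -1.39, -3.39 and -2.79.

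Within the Notch list, 3 of 11 tested members were called higher in the chimera rat (Jag1, Nrarp and Heyl) and 1 of 11 in the SD rat (Heyl), none lower. The shares of all tested genes called higher were 1.35% and 1.62%. Jag1 was 2.42-fold higher (1.82 to 3.18) in the chimera rat and 1.99-fold (1.42 to 2.74) in the SD rat. Nrarp, encoding a feedback inhibitor of Notch, was at 628 against 297 CPM in the chimera rat (2.11-fold) and 469 against 271 in the SD rat (1.73-fold), and at 79.7 against 55.8 in mouse cells (1.43-fold). Heyl, a Notch target that mural cells also use, was 3.16-fold and 3.54-fold higher in the rats, and without cells with mural genes it had 0 UMIs in the arterial-gated cells of either rat. Dll4 was at 1.18-fold (0.849 to 1.60) and 1.01-fold (0.770 to 1.32), with intervals that include 1.

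Without cells with mural genes 3 of 10 tested Notch genes were called higher and 1 lower in the chimera rat, and 1 of 10 higher in the SD rat, against backgrounds of 3.61%, 17.1% and 2.79%. In the chimera rat these were Dll4 at 193 against 88.7 CPM (2.18-fold, 1.31 to 3.43), with 35.0% of its 20 UMIs in 1 cell, Jag1 at 2.33-fold (1.22 to 4.10), with 46.2% of 13 UMIs in 1 cell, and Nrarp at 1333 against 297 CPM (4.49-fold, 3.73 to 5.37), found in 14 of 15 cells. The ligand gene Dll1 was at 9.66 against 40.0 from 1 UMI. In the SD rat Dll1 was called higher instead, at 102 against 42.5 CPM (2.41-fold, 1.32 to 4.10), while Dll4 was at 1.41-fold (0.955 to 2.01), Jag1 at 1.86-fold (0.996 to 3.19) and Nrarp at 1.99-fold (1.55 to 2.52).

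Guidance genes were called higher for 1 of 13 (Sox18, with 47.2% of its UMIs in 1 cell) in the chimera rat and 0 of 12 in the SD rat. Over all tested genes these shares were 1.35% and 1.62%. Without cells with mural genes 3 of 12 were higher in the chimera rat and 2 of 12 in the SD rat, against backgrounds of 3.61% and 2.79%. Efna1, encoding ephrin-A1, was higher in both, at 3.01-fold (1.80 to 4.77) and 2.37-fold (1.57 to 3.45). In the chimera rat the netrin receptor gene Unc5b (2.48-fold, 1.47 to 3.96) and Sox18 (81.0% of its UMIs in 1 cell) were called as well. Nrp1, a semaphorin and VEGF receptor gene, was lower there at 193 against 472 CPM (2.45-fold lower). It was the only 1 of the 12 called lower, beside 17.1% of all tested genes. In the SD rat Sox7 was at 178 against 71.6 CPM (2.48-fold, 1.59 to 3.72).

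In the chimera every UMI maps to a rat or a mouse gene, so barcodes with UMIs of both species could be read by species for each set of genes. The 96 mixed barcodes that passed the arterial gate had a median of 13073 UMIs, and 72 of them (95% interval 65.1% to 83.3%) had at least 3 mural genes. Of the UMIs of the 5 endothelial genes 81.7% were on mouse genes (3972 mouse and 890 rat), and of those of the 8 mural genes 1.35% were (46 mouse and 3367 rat). In 73 of the 96 barcodes the endothelial UMIs were mostly mouse and the mural UMIs mostly rat, and in none was it the reverse, which allows up to 3.13%. The chimera's mural barcodes without endothelial genes were 189 rat, 2 mouse and 40 mixed, so mouse mural RNA, from which the reverse could arise, was scarce among these barcodes. Only 10 of the 96 barcodes had both sets mostly rat and 1 had both mostly mouse. Scrublet marked 3 of the 96 as doublets. Other barcodes and other genes showed such a split too: in the 500 other mixed vascular barcodes 65.0% of the endothelial and 1.84% of the mural UMIs were mouse, and of the myofibre marker UMIs 6.93% were mouse in the 96 barcodes and 11.6% in the 500.

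The 4 arterial genes took different sides in these barcodes. Sema3g was 92.8% mouse, Gja5 71.6% and Hey1 70.8%, whereas Gja4 was 18.4% mouse (88 mouse and 389 rat UMIs). The arterial genes outside the gate followed the endothelial side: Stmn2 was 100% mouse, Vegfc 78.7%, Fbln5 and Edn1 77.9% each and Igfbp3 69.1%. Mgp followed the mural side, with 1.5% mouse UMIs. Of the mural genes only Notch3, the receptor of smooth muscle cells, had more than a few percent, with 7 mouse and 18 rat UMIs. A similar split of Notch3 was found in the 189 mural barcodes called rat, with 14 mouse and 40 rat UMIs. In the 115 barcodes called mouse, 96.3% of all UMIs were mouse but 11.4% of the mural UMIs were (28 mouse and 218 rat), and Gja4 was 94.4% mouse. Their myofibre marker UMIs were 18.8% mouse. The few mural transcripts in mouse cells thus mapped mostly to rat genes, and their Gja4 mapped to the mouse gene.

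**Figure D5:**
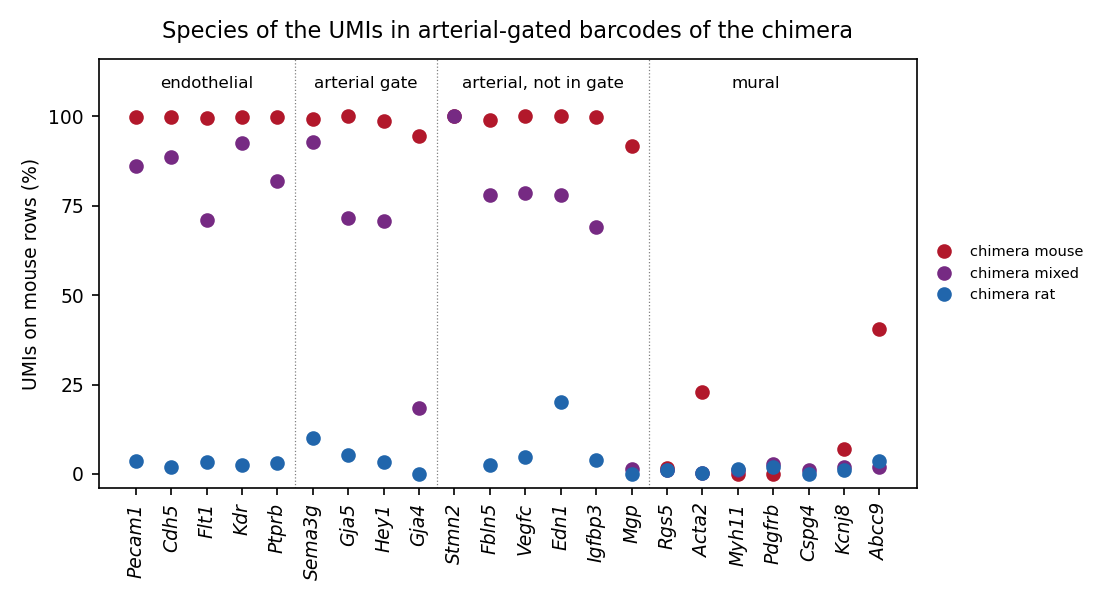
Percent of each gene's UMIs on mouse genes (vertical axis) in arterial-gated barcodes of the chimera called mouse (red), mixed (purple) or rat (blue), for genes with at least 10 UMIs in the group. In the mixed barcodes 4 of 5 endothelial genes lie above 80%, Gja4 lies at 18.4% and the 7 mural genes shown lie near 0%.

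Rat arterial-gated cells of the chimera and of the SD rat were compared directly, 44 cells with 504824 UMIs against 54 cells with 418129 UMIs over the shared symbols. The sums held unequal amounts of RNA of other cell types. Of the fibroblast markers 3 of 4 were called higher in the chimera (Dcn, Col1a1 and Col1a2, median log2 ratio 1.50), and 1 chimera cell held 72.6% of that list's UMIs. Both erythroid markers were higher, at a summed 12733 against 390 CPM, with 97.0% of the chimera UMIs in 1 cell and 399.9 CPM without it. Of 7 myofibre markers 2 were called lower, Tcap and Ttn. The part of these in the values that follow was not tested. Of 4554 tested genes 135 (2.96%) were called higher and 151 (3.32%) lower in the chimera, and 53 of these 286 were past 2-fold in the same direction in the other vascular cells too. Of the 12 genes ranked highest, 11 had at least 80% of their UMIs on the mouse gene in chimera rat vascular cells, and the same 11 were past 2-fold in the other vascular cells. Lars2, with 421 UMIs against 1, had 99.3% of them on the mouse gene. The SD rat library was mapped to rat genes alone, so for these genes the reference and the animal cannot be told apart. The exception was Gsta1, a glutathione transferase gene, with 50 UMIs against 4, all on the rat gene, and a log2 ratio of 2.48 in arterial-gated against 0.55 in other vascular cells.

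Among the 12 genes ranked lowest, 6 were also past 2-fold in other vascular cells, led by Hs6st3 with 0 UMIs against 408 and Atp13a4 with 0 against 83. The other 6 were Vav3, Sh3pxd2b, Cxcr4, Jmy, Itsn1 and Cdkal1. The libraries were mapped to different references, so for the lower genes too the reference and the animal cannot be told apart. Cxcr4, the receptor of CXCL12, was at 33.7 CPM in the chimera against 129 in the SD rat (3.84-fold lower, 2.19 to 7.06), and its log2 ratio in other vascular cells was -0.21. Of 7 tested venous markers 5 were called higher in the chimera, Nr2f2 at 113 against 50.2 CPM and Plvap at 285 against 52.6, the latter with 86.1% of its UMIs in 1 cell. Nr2f2 had 54.7% of its UMIs on the mouse gene in chimera rat vascular cells. Klf2, the shear-induced transcription factor, was at 1400 against 407 CPM (3.44-fold, 2.91 to 4.10), with a log2 ratio of 1.76 against 0.80 in other vascular cells. It was the only one of 6 tested flow-responsive genes called, and the other 5 were below 0, with a list median of -0.41. Igfbp3 was 2.13-fold lower (1.79 to 2.55). Of the 7 tested chemokine and growth factor genes, Cxcr4 and Igfbp3 were called lower and Pdgfb higher, the latter at a log2 ratio of 1.89. No member was called in the Notch (10 tested), mural (10), capillary (8), vasomotor (10) or BMP and TGF-beta (11) lists, whose medians lay between -0.33 and 0.20.

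Without cells with at least 3 mural genes, 15 chimera against 30 SD rat cells, 81 of 1573 tested genes (5.15%) were called higher and 160 (10.2%) lower. Klf2 was at 3389 against 718 CPM (4.72-fold, 3.79 to 5.93), whereas 2 of the 6 flow-responsive genes, Thbd and Tek, were called lower and the list median was -0.08. Igfbp3 was 2.11-fold lower (1.55 to 2.92). Nr2f2 and Ackr1 had 0 UMIs on both sides, and of the venous markers 2 had enough UMIs, of which Lrg1 was higher with 51.3% of its UMIs in 1 cell. Cxcr4 had 4 UMIs against 22 and Gsta1 5 against 0, too few for the minimum of 30. All 4 tested fibroblast markers were higher, with a median log2 ratio of 3.58.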

How the data were processed

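The authors deposited unnormalised UMI counts for every barcode and gene. The submitters' processing notes name Cell Ranger 7.1.0 and the builds mRatBN7.2 and GRCm39, with the chimera mapped to a combined rat and mouse reference and the SD rat to the rat reference alone. Barcodes with at least 500 UMIs, 200 genes and at most 20% mitochondrial UMIs were kept. Rat and mouse counts of a symbol were added, and levels were taken over the 16235 symbols found in both species. Genes with at least 30 summed UMIs were compared, with 10 CPM added. Groups are single libraries, so no test was run, and members within a library are not replicates. Doublets were predicted with Scrublet in Scanpy 1.11.5 (372 of 12174 and 160 of 8980 barcodes) and kept. Genes were named by rank of the lowest of 3 log2 ratios (15 each way) or of the ratio between the rats (12 each way), with at most 25% of UMIs in 1 cell, and list genes when past 2-fold in at least 2 populations or when they define a list. Members and lists were chosen with earlier results of these data known. Alternatives covered thresholds, pseudocount, thinning, weighting, species calls, own-species counts, doublets and cells with mural genes. Leaving out cells with at least 3 of 8 mural genes, requiring Sema3g or Gja5 and leaving out the cell with most UMIs of Fbln5, Vegfc, Edn1 or Eln were chosen after seeing the data. Computations used Python 3.11.15, NumPy 2.4.6, pandas 2.3.3 and SciPy 1.17.1, and the interval code was tested on simulated data. The result of 1 of the genes whose sign turned under an alternative is not reported here.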

Additional observations from a re-analysis of the deposited data

Results flagged for a closer look

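The ratio of arterial-gated to other vascular cells had opposite signs in mouse and rat for Fbn1 and Tagln, and the difference between the species was not tested. The log2 ratio of Fbn1, encoding fibrillin-1, was 1.15 in mouse, -0.54 in chimera rat and -0.74 in SD rat cells. That of Tagln, a smooth muscle actin-binding protein gene, was -1.83 in mouse, 1.29 in chimera rat and 1.49 in SD rat cells.

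Barcodes with UMIs of both species enter no comparison between populations, yet 96 of them passed the arterial gate. In 73 the endothelial UMIs were mostly mouse and the mural UMIs mostly rat, and 1.35% of their mural UMIs were mouse. There is no control library of mixed species in the series against which this number could be set. Mural barcodes without endothelial genes were 189 rat, 2 mouse and 40 mixed in the chimera. In those 40 the mural UMIs were 32 mouse and 871 rat. Mural RNA was not summed by species over the whole library.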

How the results depend on the processing

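No paired analysis was possible because each group is 1 library, and for the same reason no replicate could be left out. Over the alternatives, 74 values of the shares and gene counts stayed within their interval or within 1.5 times the main count and 56 moved. For single genes 1163 log2 ratios stayed within their counting interval, 287 moved and 24 turned sign. The causes were not tested except where a setting leaves fewer cells. Gene values were computed only with at least 10 cells in both groups, so thinning and the 90% and 10% species call gave none for chimera rat cells. Depth limits the rat groups most, with 44 and 54 cells.

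The main numbers of genes past 2-fold in arterial-gated against other cells were 177 in mouse, 434 in chimera rat and 534 in SD rat, and 286 between the rats. In that order they were 585, 1211, 1436 and 451 with 1 CPM added, 40, 84, 118 and 82 with 50 added, and 373, 1923, 1477 and 153 without cells with 2 or more mural markers. For the first 3 they were 752, 1707 and 1932 with 3 or more arterial genes, 336, 791 and 807 with cells weighted equally, 287, 1321 and 1172 when Sema3g or Gja5 was required, and 275, 1689 and 1359 without cells with 3 or more of 8 mural genes. Thinning gave 1139 in mouse and 2770 in SD rat cells. A minimum of 100 UMIs gave 278 in chimera rat cells and 85 between the rats, no minimum gave 683 between the rats, and leaving out symbols with mouse UMIs gave 145.

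The arterial-gated share in percent of mouse, chimera rat and SD rat vascular cells was 4.30, 1.14 and 0.695 with 3 or more arterial genes, 8.11, 1.82 and 1.88 with Sema3g or Gja5 required, and 5.20, 0.291 and 1.41 thinned. In chimera and SD rat cells it was 2.02 and 2.40 without cells with 2 or more mural markers and 1.96 and 2.27 without those with 3 or more of 8. With species called at 90% and 10% it was 8.64 in chimera rat cells. The mouse percentage of the chimera's arterial-gated cells was 81.5 with 3 or more arterial genes, 83.8 with Sema3g or Gja5 required, 86.5 and 87.6 without cells with 2 or more mural markers or 3 or more of 8, 93.6 at 90% and 10%, and 96.0 thinned. For other vascular cells it was 57.6 with 3 or more endothelial genes, 56.1 at 10% mitochondrial UMIs, 91.6 at 90% and 10% and 56.3 thinned. For venous-gated cells it was 84.6 at 90% and 10% and 53.8 thinned.

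Signs turned as follows on the log2 scale. With own-species counts Lars2 was -0.047, Rraga -0.52 and Mrps28 -0.38 between the rats. Without cells with 2 or more mural markers the lowest ratio of Cox4i2 was -0.82, Vegfc was -0.86 in chimera rat cells, and Rgs5, Acta2 and Tagln were -1.36, -0.89 and -0.64 in chimera rat and -0.43, -0.83 and -1.99 in SD rat cells, while between the rats Vav3 was 0.27 and Cdkal1 0.14. Without cells with 3 or more of 8 mural genes Cox4i2 was -0.32, Vegfc -0.21, and Rgs5, Acta2 and Tagln -1.56, -1.83 and -2.11 in chimera rat and -1.54, -0.91 and -1.42 in SD rat cells. Thinned, Mgp was -0.55 in mouse and Tagln -1.21 in SD rat cells.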
